A study of Mus musculus with 58 samples.

Results

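These 4 libraries, of 58 in the series, follow cells that lack 2 routes of Xist-dependent silencing as they leave the embryonic stem (ES) cell state towards neural precursors (NPC). They were chosen by their titles: the dTAG-13 treated FKBP12-PCGF35_SPOC clones F10 and F6 at ES day 0 and at NPC day 6, 1 library per clone and day. The cells derive from iXist-ChrX-Dom, a female mouse ES line from a 129S by Castaneus cross. In this line the Xist gene of the domesticus-type (Dom) X is driven by a TetO promoter that responds to doxycycline, and the Castaneus (Cast) X keeps its own Xist. All 4 libraries share 2 further changes. An FKBP12 (F36V) degron tag on the N termini of PCGF3 and PCGF5 lets the compound dTAG-13 destroy both proteins, and point mutations in the SPOC domain of SPEN disturb its contact with co-repressors. The day 0 cultures were ES cells in serum and LIF with dTAG-13 and no doxycycline. The day 6 cultures received dTAG-13 from 12 h before doxycycline at 1 ug/mL, and then spent 6 days in N2B27 medium, which favours neural differentiation, with both compounds present. Libraries of the same clones at day 1 (ES medium, doxycycline) and day 3 (N2B27, doxycycline), and the same clones without dTAG-13, are set beside them, as is the FKBP12-PCGF35 line with intact SPEN and dTAG-13. Each FKBP12-PCGF35_SPOC group holds 2 clones with 1 culture each, so p-values measure the spread between cultures of these 2 clones. That spread is drawn from all libraries of these clones, which are not independent, so the p-values may be too small. The FKBP12-PCGF35 groups hold 2 replicates of 1 line. By the study's methods, F6 was sub-cloned before sequencing because some of its cells were XO, and later time points were not taken because cells with 2 active X chromosomes lose an X as they differentiate. The ES cultures grew on inactivated fibroblast feeders that were taken off by pre-plating.

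Xist RNA coats the X from which it is made and recruits several repressive systems. SPEN reaches active X-linked genes early and uses its SPOC domain to bring in co-repressors and histone deacetylases, whereas the Polycomb complexes assembled on PCGF3 and PCGF5 (variant PRC1) ubiquitinate histone H2A and open the way to PRC2 and to H3K27 methylation. Polycomb complexes also hold many developmental genes in check in ES cells. When ES cells leave the naive state they normally lose naive pluripotency genes, pass through a formative stage with genes such as Fgf5 and Otx2, and in N2B27 gain neural precursor genes such as Sox1, Pax6 and Nes.

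RNA was taken from chromatin, so intronic and newly made transcripts weigh heavily. Depth was 13.3 to 17.8 M fragments (M for mega) in the 4 libraries, and between 46.3% and 47.7% of fragments could be given to an allele. Levels below are counts per 1000000 fragments (CPM) of each library, which compare a gene between libraries and not with other genes. A fitted log2 fold change is day 6 against day 0 averaged over both clones, from edgeR's quasi-likelihood test with Benjamini-Hochberg adjustment over all 15718 genes tested in the 16 FKBP12-PCGF35_SPOC libraries with a clone term. Its error is a standard error (SE). A change within 1 clone is the ratio of 2 libraries on the log2(CPM + 0.5) scale and has no error of its own. Day 0 and day 6 differ in medium, doxycycline and length of dTAG-13 treatment, which cannot be told apart. In bulk RNA, fewer cells of a type and less RNA per cell cannot be told apart either.

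The induction of Xist was clear in both clones. Xist stood at 74.3 CPM in F10 and 83.5 CPM in F6 on day 0, at 2830 and 3221 CPM after 1 day of doxycycline, and at 10295 and 5344 CPM on day 6. Day 0 and day 6 did not overlap, and the fitted log2 fold change was 6.63 ± 0.36 (SE, 2 clones, adjusted p = 4.52e-05, edgeR quasi-likelihood test). The F10 day 6 library held more Xist than any other of the 8 dTAG-13 treated libraries. Degradation by dTAG-13 acts on protein, so the RNA of Pcgf3 and Pcgf5 is no check on it. Pcgf3 gave 84.6 and 92.8 CPM in F10 (day 0, then day 6) and 96.6 and 73.6 CPM in F6, and Pcgf5 gave 49.6 and 97.6 CPM in F10 and 47.5 and 32.6 CPM in F6. Both transcripts were thus present in every library, and neither passed the test.

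Neural markers were sparse in the libraries labelled NPC, and this was not particular to the treated clones. The summed CPM of the 20 listed genes on day 6 was 747 in treated F10 and 125 in treated F6. It was 668 and 155 in untreated F10 and F6, and 235 and 139 in replicates 1 and 2 of treated FKBP12-PCGF35. Of 20 neural precursor genes on the list, 8 had enough counts to test, 11 stayed at or below 0.832 CPM in all 4 libraries, and Sox1 was uninformative because another gene model overlaps it on the same strand. Among the 11 were Hes5, Olig2, Neurog2 and Six3, all transcription regulators of neural precursors. Pax6, a regulator of the neuroectoderm, was at 2.36 CPM on day 0 and 1.52 CPM on day 6 in F10, and at 0.951 and 1.05 CPM in F6. Its day 0 and day 6 values overlapped. Nes, the intermediate filament nestin of neural precursors, was at 66.1 and 166 CPM in F10 and at 13.4 and 12.3 CPM in F6, so it differed between days in F10 alone by value.

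Cdh2 (N-cadherin), Vim (vimentin) and Fabp7 (a fatty acid binding protein of radial glia) were the 3 neural precursor genes that rose, of 8 tested, and none fell. Over all genes 5.17% rose. Of these 8 genes, 1 rose and 0 fell in the untreated clones, as in treated FKBP12-PCGF35. Cdh2 was at 109 and 317 CPM in F10 and at 23.5 and 56 CPM in F6, higher on day 6 in each clone, with a log2 fold change of 1.45 ± 0.26 (adjusted p = 0.00993, edgeR). Vim was at 34.7 and 189 CPM in F10 and at 16.3 and 28.1 CPM in F6 (1.83 ± 0.44, adjusted p = 0.0271, edgeR). The day 6 level of Vim in F6 lay below the day 0 level in F10, so the groups overlapped although each clone moved upwards. Fabp7 stayed low, at 0.336 and 2.25 CPM in F10 and at 0 and 0.0752 CPM in F6. Vim and Cdh2 are also made by mesenchymal cells. None of the 3 calls was kept without any 1 of the F10 day 0, F6 day 0 or F10 day 6 libraries. Of 10 neuron genes, 0 rose and 0 fell in the edgeR fit. Map2, a neuronal cytoskeleton gene, was at 133 and 153 CPM in F10 and at 73.2 and 96 CPM in F6, and Tubb3, the neuronal tubulin, was at 7.12 and 5.77 CPM in F10 and at 2.26 and 5.64 CPM in F6.

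**Figure D1:**
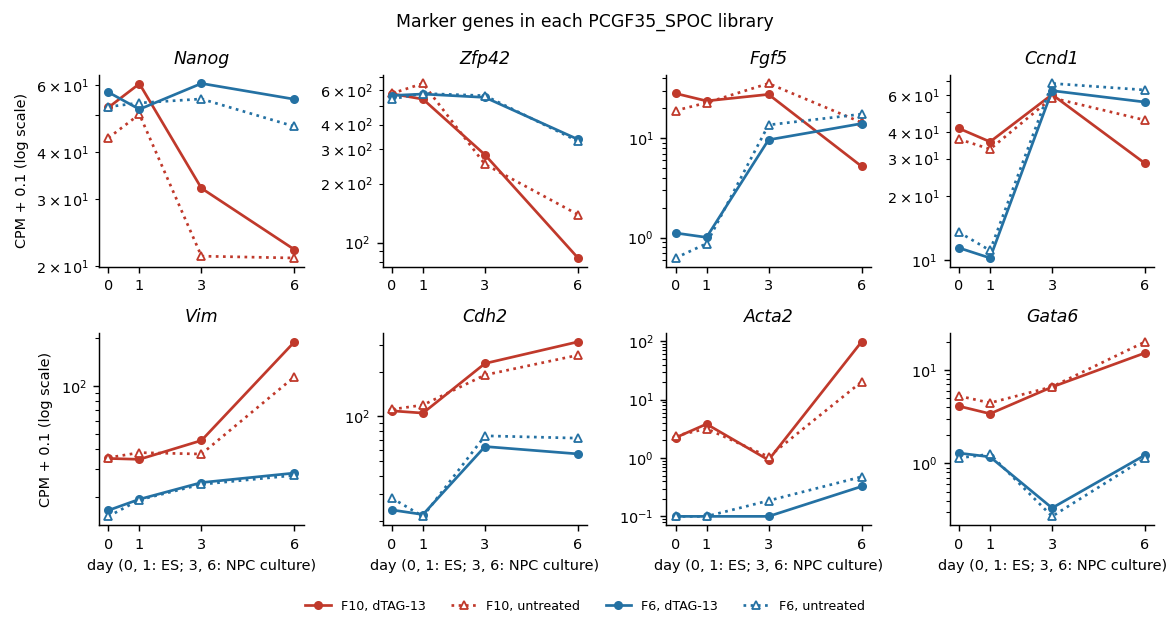
CPM of 8 genes (log axis, 0.1 CPM added) by day in clone F10 (red) and clone F6 (blue), with dTAG-13 (solid lines) and without it (dotted lines), 1 library per point. Nanog, Zfp42 and Fgf5 end lower in F10 than in F6 with dTAG-13, whereas Acta2 and Gata6 end at 98.1 and 15 CPM in F10 against 0.226 and 1.13 CPM in F6.

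Over all genes, 1683 of 15718 changed (10.7%), with 813 higher (5.17%) and 870 lower (5.54%) on day 6, and the median log2 fold change was 0.03. From day 1, when doxycycline was already present, to day 6 the count was 1558 (9.91%). From day 0 to day 1, still in ES medium, 1 gene was called (0.00636%), Xist, and 58 genes had an unadjusted p below 0.05. Between day 0 and day 3 in N2B27, 1102 genes were called (7.01%), and between day 3 and day 6 the count was 3 (0.0191%). These counts lean on the fit. Without the clone term 68 genes were called, and with the 8 dTAG-13 treated libraries alone 77, all among the 1683. Without the F6 day 6 library 2846 were called, without the F10 day 6 library 444, and without the F10 or F6 day 0 library 233 or 197. In total 135 genes (39 higher, 96 lower) were called in the full fit and without each of the 4 libraries in turn.

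The clones went different ways. Each clone had 1 library per treatment and day, so clone and differentiation run cannot be told apart here or below. Over 11977 tested genes with at least 5 CPM in 1 of the 4 libraries, the day 0 to day 6 change had the same sign in F10 and F6 for 53.2% of genes, and Pearson's r across genes was 0.17. Genes are not independent replicates, so this is a description. F10 had 979 genes more than 2-fold higher and 973 more than 2-fold lower, and F6 had 575 and 555. Both clones passed 2-fold upwards at 146 genes (1.22%) and downwards at 179 (1.49%), and they passed it in opposite directions at 41 genes (higher in F10, lower in F6) and at 88 genes (lower in F10, higher in F6). At day 3 the same-sign share was 63.8% with r of 0.46. It was 61.8% with r of 0.42 between the untreated clones at day 6, and 68.4% with r of 0.67 between the 2 replicates of dTAG-13 treated FKBP12-PCGF35. The lowest agreement of these 4 pairs was thus that of the treated clones at day 6.

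**Figure D2:**
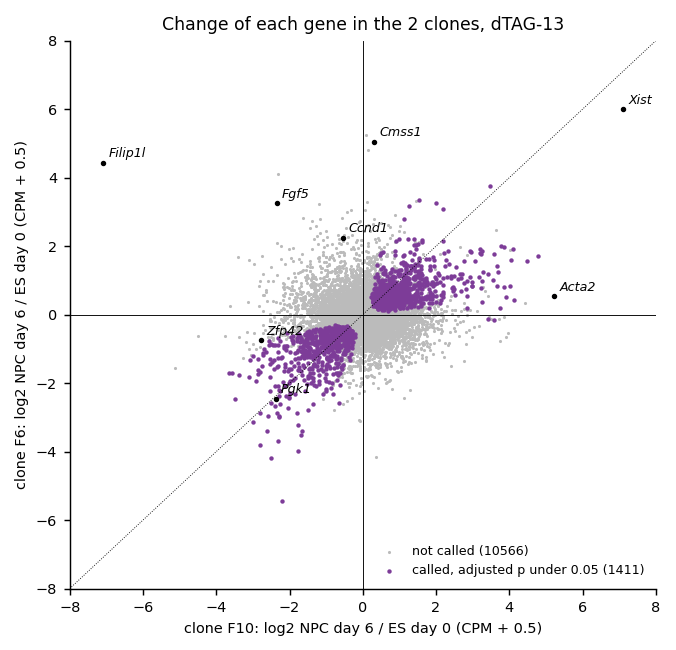
Change from day 0 to day 6 with dTAG-13, log2(CPM + 0.5), in clone F10 (x axis) and clone F6 (y axis) for 11977 genes, with the genes called in the fit over both clones in purple. The cloud has little slope (r = 0.17): Pgk1 and Xist lie near the diagonal, Fgf5 and Ccnd1 lie to the upper left, and Filip1l lies far off it.

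Whether the 2 clones responded differently to NPC culture was asked with a clone-by-culture term over the 16 libraries, in which treated and untreated cultures and both NPC days stand in for replicates. The term passed the threshold at 6306 of 15718 genes (40.1%; 20% higher in F10 and 20.1% lower in F10, edgeR). The 16 libraries are of only 2 clones, and the term was fitted after the clones had been seen to differ. The stand-ins are not independent. At NPC day 6 the gene-wise difference between clones correlated at 0.770 between treated and untreated cultures. The count therefore describes these cultures and does not measure a spread among clones. From the 8 dTAG-13 treated libraries alone the count was 64.

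All 16 naive genes were lower on day 6 than on day 0 in F10, and 14 of them by more than 2-fold. In F6, 11 were lower, 5 were higher, and 2 were more than 2-fold lower. Over all genes tested, 49.1% were lower in F10 and 55.4% in F6. Of those 15718 genes, 1530 in F10 and 962 in F6 were more than 2-fold lower. The list medians were −1.53 in F10 and −0.13 in F6 on the log2(CPM + 0.5) scale, beside medians of 0.01 and −0.07 over all genes tested. Nanog, which stabilises self-renewal, was at 52.4 and 22 CPM in F10 and at 57.5 and 55.1 CPM in F6. Zfp42 (Rex1), a naive state marker, was at 573 and 83.3 CPM in F10 and at 562 and 336 CPM in F6. The clones started close together at both genes and separated by day 6. Klf4, a naive state transcription factor, was at 43.8 and 9.24 CPM in F10 and at 26.3 and 35.4 CPM in F6, in opposite directions. Esrrb, an orphan nuclear receptor of the naive network, was at 432 and 191 CPM in F10 and at 538 and 495 CPM in F6. Prdm14, which restrains FGF signalling and DNA methylation, was at 29.7 and 6.38 CPM in F10 and at 29.5 and 26.6 CPM in F6. None of these 5 passed the test over both clones. The clone-by-culture term was negative and past the threshold at 14 of the 16 genes, beside 20.1% of all genes. With the treated libraries alone it was so at 2 of the 16, and at 49 genes over all. These counts describe the cultures of 2 clones and do not measure a spread among clones.

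Tfcp2l1 and Dppa3 were the 2 naive genes, of 16, that fell over both clones, beside 5.54% of all genes tested. Tfcp2l1, a transcription factor downstream of LIF, was at 229 and 81.8 CPM in F10 and at 289 and 133 CPM in F6, without overlap between days (−1.27 ± 0.26, adjusted p = 0.0161, edgeR). Dppa3 (Stella), an oocyte and naive state factor, was at 7.68 and 2.19 CPM in F10 and at 6.83 and 2.56 CPM in F6 (−1.58 ± 0.22, adjusted p = 0.00385, edgeR). Dppa3 was called without each of the 4 libraries in turn, whereas the Tfcp2l1 call was lost without any 1 of 3 of them (F10 day 0, F6 day 0 or F10 day 6, adjusted p of 0.122, 0.0553 and 0.0871).

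Among 9 core pluripotency genes tested, 1 rose and 1 fell, beside 10.7% called over all genes. Lin28a, which blocks let-7 maturation, was at 42.6 and 62.5 CPM in F10 and at 18.9 and 25.6 CPM in F6 (0.54 ± 0.13, adjusted p = 0.026, edgeR). Dppa5a (Esg1), an RNA-binding protein of pluripotent cells, was at 48.8 and 17.3 CPM in F10 and at 97.1 and 43.6 CPM in F6 (−1.27 ± 0.20, adjusted p = 0.00572, edgeR). Each clone moved the same way at both genes, although the ranges of the days overlapped because the clones started apart. The Lin28a call was lost without the same 3 libraries (adjusted p of 0.153, 0.137 and 0.105, edgeR), and that of Dppa5a without the F10 day 0 library (0.0518). Pou5f1 (Oct4) was at 48.4 and 25 CPM in F10 and at 45.9 and 68.3 CPM in F6, so it was still present in both clones on day 6, and in F6 at more than its ES level by value. Sox2 was uninformative for the same reason as Sox1.

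Formative genes also lay lower in F10 than in F6 relative to day 0. Of 10 genes, 9 were lower on day 6 in F10 and all 10 were higher in F6, with list medians of −1.11 and 1.29, and 0 rose and 0 fell over both clones in the edgeR fit. Over all 15718 genes tested, 49.1% were lower in F10 and 7006 were higher in F6. Fgf5, a secreted factor of the post-implantation epiblast, was at 28.1, 23.6, 27.5 and 5.11 CPM on days 0, 1, 3 and 6 in F10 and at 1.01, 0.904, 9.52 and 13.9 CPM in F6. F10 therefore held Fgf5 before differentiation began and was low on day 6 only, while F6 was high on days 3 and 6. Lef1, a mediator of Wnt signalling, was at 64.4, 37.3, 186 and 28.7 CPM in F10 and at 17.4, 8.02, 49.9 and 42.1 CPM in F6. Dnmt3b, the de novo DNA methyltransferase of the epiblast, was at 226, 211, 496 and 123 CPM in F10 and at 123, 147, 244 and 232 CPM in F6. Lef1 and Dnmt3b were highest on day 3 in both clones. The clone-by-culture term was negative and past the threshold at 7 of the 10 genes, beside 20.1% of all genes. It was so at 0 of the 10 with the treated libraries alone (edgeR). These counts describe the cultures of F10 and F6 only. At Fgf5 the term was −4.58, given without a p-value because each side of the term is a single clone.

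Of 12 tested genes that report FGF/ERK signalling, 9 were lower on day 6 in F10 and 2 in F6. Over all genes tested, 49.1% were lower in F10 and 55.4% in F6. In the fit over both clones 1 rose and 0 fell, near the 10.7% called over all genes. Spred1, an inhibitor of RAS-ERK signalling, was at 133 and 221 CPM in F10 and at 79.9 and 128 CPM in F6, up by nearly the same factor in each (0.74 ± 0.10, adjusted p = 0.0037, edgeR), and it was called without each of the 4 libraries in turn. Ccnd1 (cyclin D1), which drives entry into S phase, was at 41.6, 35.9, 60.1 and 28.4 CPM over days 0, 1, 3 and 6 in F10 and at 11.3, 10.1, 62.7 and 55.4 CPM in F6. The clones met at day 3 and parted at day 6. The ERK phosphatase gene Dusp6 was at 15.8 and 17.8 CPM in F10 and at 4.64 and 11.9 CPM in F6, and did not pass the test.

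**Figure D3:**
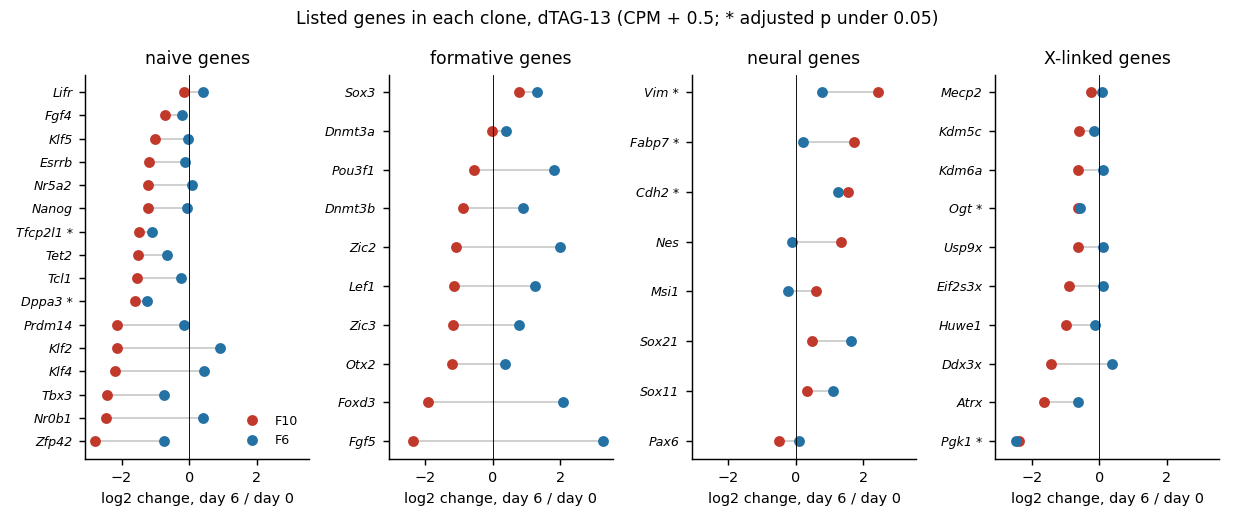
Change from day 0 to day 6 with dTAG-13, log2(CPM + 0.5), of each gene of 4 lists in clone F10 (red) and clone F6 (blue), with a star for genes called over both clones at adjusted p under 0.05 (edgeR). In the naive list 14 of 16 genes pass 2-fold downwards in F10 and 2 in F6, and in the formative list 9 of 10 lie below 0 in F10 and all 10 above 0 in F6.

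The largest increases over both clones were, apart from Xist and a pair of heat shock genes at genes whose level was high in F10 and low in F6. Acta2, smooth muscle actin, was at 2.13, 3.72, 0.825 and 98.1 CPM on days 0, 1, 3 and 6 in F10 and at 0, 0, 0 and 0.226 CPM in F6 (5.34 ± 0.62, adjusted p = 0.0015, edgeR). Its rise in F10 lay between day 3 and day 6, and its level in F6 stayed near 0. Col8a1, a collagen, was at 4.71 and 144 CPM in F10 and at 0.178 and 1.73 CPM in F6. Its call over both clones was lost without the F10 day 0, the F6 day 0 or the F10 day 6 library. Zeb2, a repressor of epithelial genes, was at 16.9 and 299 CPM in F10 and at 2.61 and 11.3 CPM in F6 (3.45 ± 0.48, adjusted p = 0.00406, edgeR). At these genes the day 6 level in F6 did not reach that of F10 on day 0, so the days overlapped across clones. The Acta2 call was lost without the F10 day 0 or the F10 day 6 library (adjusted p of 0.182 and 0.190, edgeR), and that of Zeb2 without the F10 day 0 library (0.0593).

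A further 6 of the 12 named increases had that form. Rbms3, an RNA-binding protein gene, was at 15.3 and 352 CPM in F10 and at 1.96 and 6.85 CPM in F6, and Pcdh7, a protocadherin, was at 37.7 and 421 CPM in F10 and at 0.357 and 11.1 CPM in F6. Mef2c, a transcription factor of muscle and neurons, was at 2.24 and 43.6 CPM in F10 and at 0.238 and 0.828 CPM in F6. Each clone was higher on day 6, and F10 held the higher level throughout. Kynu, a kynureninase of tryptophan breakdown, was at 1.68 and 35.7 CPM in F10 and at 0.0594 and 1.2 CPM in F6. Angpt1, a ligand of the Tie2 receptor, was at 1.57 and 26.4 CPM in F10 and at 0.0594 and 0.828 CPM in F6. Me3, a mitochondrial malic enzyme, was at 2.75 and 56.6 CPM in F10 and at 0.594 and 0.978 CPM in F6. All these passed the edgeR test over both clones, with adjusted p from 0.00415 for Kynu to 0.039 for Pcdh7, and none was called without each of the 4 libraries in turn.

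Since feeder fibroblasts were used, fibroblast genes were looked at as a list. Of 12 genes, 10 were tested, 2 rose (Acta2 and Tagln, an actin-binding protein of smooth muscle) and 0 fell, beside 5.17% higher over all genes. Of the 10, 9 were higher on day 6 in F10, 8 of them by more than 2-fold, and 7 were higher in F6, 3 of them by more than 2-fold, with list medians of 2.03 and 0.54 on the log2(CPM + 0.5) scale. Over all 15718 genes tested, 7998 were higher in F10 and 7006 in F6, with 1202 and 724 more than 2-fold higher. Tagln was at 7.91 and 65.8 CPM in F10 and at 0.416 and 1.13 CPM in F6 (2.63 ± 0.49, adjusted p = 0.0112, edgeR), a call lost without the F10 day 0, the F6 day 0 or the F10 day 6 library. Col1a2, a chain of type I collagen, was at 6 and 106 CPM in F10 and at 0.475 and 3.08 CPM in F6. The summed CPM of the list went from 630 to 1233 in F10 and from 539 to 415 in F6, most of it Fn1 (fibronectin), at 576 and 745 CPM in F10 and 532 and 395 CPM in F6. Of the list's other genes, Lum, Dcn and Twist1 stayed at or below 0.0608, 1.03 and 0.535 CPM in the 4 libraries. The part of feeder cells in the levels of F10 was not tested.

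Of 8 endoderm and mesoderm genes tested, 5 were higher on day 6 in F10 and 3 were lower, and 3 were higher and 4 lower in F6. Over all genes tested, 49.1% were lower in F10 and 55.4% in F6. Sox17, an endoderm regulator, was the 1 gene that rose, at 0.561 and 1.76 CPM in F10 and at 0 and 0.376 CPM in F6 (adjusted p = 0.0446, edgeR), and 0 fell, beside 10.7% called over all genes. The Sox17 call was lost without the F10 day 0, the F6 day 0 or the F10 day 6 library. Gata6, which specifies primitive endoderm, was at 3.98 and 15 CPM in F10 and at 1.19 and 1.13 CPM in F6. Gata4 was at 7.35 and 21.6 CPM in F10 and at 5.35 and 7.45 CPM in F6, and Pdgfra, a growth factor receptor of the same lineage, at 4.15 and 12.8 CPM in F10 and at 1.96 and 2.71 CPM in F6. The change in F10 exceeded that in F6 at all 3, and none passed the test over both clones. The clone-by-culture term was positive and past the threshold at 3 of the 8 genes, beside 20% of all genes. It was so at 0 of them with the treated libraries alone (edgeR). These counts describe the cultures of F10 and F6 only. In dTAG-13 treated FKBP12-PCGF35, with intact SPEN, Gata6 was at 0.955 and 21.3 CPM in replicate 1 and at 1.13 and 58.9 CPM in replicate 2. Of 6 trophoblast genes tested, 0 rose and 0 fell (edgeR).

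A pair of heat shock genes rose in both clones. Hspa1a was at 0.224 and 8.14 CPM in F10 and at 0.416 and 2.63 CPM in F6, and Hspa1b at 0.505 and 8.81 CPM in F10 and at 0.654 and 3.54 CPM in F6. Every day 6 library lay above every day 0 library at both (4.10 ± 0.90 and 3.44 ± 0.69, adjusted p = 0.0202 and 0.0146, edgeR). Both calls were lost without the F10 day 0, the F6 day 0 or the F10 day 6 library, with adjusted p of 0.0847 to 0.151. They encode near-identical inducible HSP70 proteins, so uniquely placed fragments may not split correctly between them. The 250 bases before each gene start are shown because they show how alike the copies are and where the heat shock element core lies (RefSeq, GRCm38.p6, minus strand, chr17:34972157-34972406 for Hspa1a and chr17:34959239-34959488 for Hspa1b). Capitals mark the match to the core of the heat shock element, searched as GAANNTTC and TTCNNGAA, which read the same on both strands.
Hspa1a: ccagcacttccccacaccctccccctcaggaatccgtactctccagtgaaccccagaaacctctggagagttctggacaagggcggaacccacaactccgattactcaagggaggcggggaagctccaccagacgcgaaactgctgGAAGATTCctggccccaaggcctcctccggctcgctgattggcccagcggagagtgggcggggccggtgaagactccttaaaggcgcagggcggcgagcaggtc
Hspa1b: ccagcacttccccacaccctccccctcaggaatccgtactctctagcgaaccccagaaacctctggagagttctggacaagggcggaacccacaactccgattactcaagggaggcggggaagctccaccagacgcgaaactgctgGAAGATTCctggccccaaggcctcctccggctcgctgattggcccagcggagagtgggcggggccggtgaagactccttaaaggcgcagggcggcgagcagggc
The 2 stretches are identical at 247 of 250 positions and hold 1 match each. A match was present in 12.8% of 32851 mouse promoters of that length, and it is a description of the letters, not a mapped binding site. Without dTAG-13 the pair behaved likewise by value, with Hspa1a at 0.139 and 8.12 CPM in F10 and at 0.58 and 3.68 CPM in F6.

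Of the 1683 called genes, 373 were more than 2-fold higher in F10, 175 in F6 and 135 in both, whereas 464 were more than 2-fold lower in F10, 397 in F6 and 281 in both. Mobp, an oligodendrocyte myelin protein gene, was at 6.45 and 0.365 CPM in F10 and at 6.54 and 0.301 CPM in F6 (−4.20 ± 0.37, adjusted p = 0.000451, edgeR). A2m, alpha-2-macroglobulin, was at 35.9 and 4.68 CPM in F10 and at 68.1 and 4.36 CPM in F6 (−3.41 ± 0.30, adjusted p = 0.000451, edgeR). Trpm1, a cation channel gene, was at 12.7 and 1.64 CPM in F10 and at 18.1 and 1.28 CPM in F6. Day 0 and day 6 did not overlap at any of the 3. Tktl2, a transketolase-like gene, was at 13 and 2.07 CPM in F10 and at 21.9 and 3.01 CPM in F6, and Rspo4, a secreted enhancer of Wnt signalling, at 5.72 and 0.79 CPM in F10 and at 9.03 and 1.05 CPM in F6. Accsl, Adtrp, Prss42 and Ptprtos followed the same course, and these 9 genes were each called without each of the 4 libraries in turn. Mep1b, Atp1a4 and Pramel7, the other 3 of the 12 named decreases, were called in the full fit with adjusted p of 0.0232, 0.0136 and 0.0481 (edgeR). Each call was lost without the F10 day 0, the F6 day 0 or the F10 day 6 library. That of Mep1b was also lost without the F6 day 6 library.

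Genes of the rare cell state that resembles the 2-cell embryo were low from the start and lower on day 6. Of 7 listed, 4 were tested and all 4 fell (Zscan4c, Zscan4d, Zscan4f and Zfp352), beside 5.54% of all genes. Zscan4d was at 1.01 and 0 CPM in F10 and at 1.07 and 0.0752 CPM in F6. Zfp352 was at 0.505 and 0.0608 CPM in F10 and at 0.535 and 0.0752 CPM in F6. The Zscan4 genes are near-identical copies, so their separate values are uncertain, and 2 of the 4 calls were kept without the F6 day 6 library and 0 without each of the other 3.

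Few genes of the Polycomb complexes passed the test. Of 26 PRC1 and PRC2 genes tested, 1 rose, Ring1 (RING1A, a ubiquitin ligase subunit of PRC1), and 0 fell, beside the 10.7% called over all genes. Ring1 was at 2.36 and 7.6 CPM in F10 and at 1.37 and 4.06 CPM in F6 (1.67 ± 0.35, adjusted p = 0.0167, edgeR), and the call was lost without the F10 day 0, the F6 day 0 or the F10 day 6 library (0.0768, 0.129 and 0.105). Ezh2, the methyltransferase of PRC2, was at 221 and 250 CPM in F10 and at 299 and 276 CPM in F6. Jarid2, a PRC2 subunit that binds ubiquitinated H2A, parted between the clones, at 3017 and 1118 CPM in F10 and at 1485 and 4182 CPM in F6 (clone-by-culture term −2.79, edgeR). The summed CPM of the PRC1 and PRC2 list also moved within ES medium. From day 0 to day 1 it went from 7728 to 5036 in untreated F10 and from 6275 to 6734 in treated F10. In F6 it went from 5505 to 5146 untreated and from 5439 to 5265 treated. Of the 8 genes of SPEN and its co-repressors, 0 rose and 0 fell, with Spen at 332 and 199 CPM in F10 and at 304 and 630 CPM in F6. Of 3 Hox genes with enough counts, 0 rose and 0 fell, and the 32 others with counts stayed at or below 0.752 CPM.

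Among other regulators, Notch3, a receptor, rose and Jag1, a Notch ligand, fell, of 13 Notch genes tested, beside 10.7% called over all genes. Notch3 was at 37.1 and 73.9 CPM in F10 and at 37.7 and 47.3 CPM in F6, and Jag1 was at 37.2 and 19 CPM in F10 and at 37.9 and 19.5 CPM in F6 (adjusted p = 0.0458 and 0.0054, edgeR). The Jag1 values were nearly the same in both clones on each day. Of 8 DNA methylation genes, again beside 10.7% over all genes, Tet3, which oxidises methylcytosine, rose (37.5 and 78.7 CPM in F10, 31.9 and 45.8 CPM in F6, adjusted p = 0.0122, edgeR) and 0 fell. Its paralogue Tet1 was at 689 and 197 CPM in F10 and at 583 and 682 CPM in F6. Smchd1, whose product joins the inactive X during differentiation, was at 455 and 516 CPM in F10 and at 378 and 413 CPM in F6 and did not pass the test. Tsix, the antisense partner of Xist, was at 299 and 62.5 CPM in F10 and at 315 and 184 CPM in F6 and fell (−1.42 ± 0.37, adjusted p = 0.0375, edgeR). Ciz1, a nuclear matrix protein that anchors Xist, was at 12.3 and 25.6 CPM in F10 and at 11.5 and 14.8 CPM in F6 and rose (0.77 ± 0.20, adjusted p = 0.0359, edgeR). The calls of Notch3, Tet3, Tsix and Ciz1 were each lost without the F10 day 0, the F6 day 0 or the F10 day 6 library, with adjusted p from 0.0639 (Tet3) to 0.264 (Notch3), and that of Jag1 without the F6 day 0 library (0.0556).

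Does loss of PCGF3/5 on top of the SPOC mutation alter the change from ES to NPC? The interaction of dTAG-13 with day was tested at 15718 genes and called 0 (edgeR, 318 with unadjusted p below 0.05, 0 by DESeq2, and 2 when the F6 treated day 6 library was left out). The untreated clones alone gave 2221 called genes (14.1%). The clones also lay apart by value at these genes without dTAG-13, where Zfp42 was at 576 and 139 CPM in F10 and at 540 and 329 CPM in F6. Acta2 was at 2.29 and 20.2 CPM in untreated F10 and at 0 and 0.377 CPM in untreated F6. A p that misses the threshold does not show that treated and untreated cultures acted alike.

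Does the SPOC mutation alter it in cells that lack PCGF3/5? Against dTAG-13 treated FKBP12-PCGF35 with intact SPEN, the interaction called 0 of 15979 genes with edgeR (1288 with unadjusted p below 0.05) and 45 with DESeq2 (21 higher, 24 lower). Without the F6 treated day 6 library the edgeR count was 71, and without replicate 2 of FKBP12-PCGF35 at day 0 it was 2. The FKBP12-PCGF35 line itself gave 3108 of 15979 genes (19.5%). In that line Zfp42 was at 1146 and 119 CPM in replicate 1 and at 885 and 80.7 CPM in replicate 2, and Nanog at 65.9 and 23 CPM and at 50.7 and 16.2 CPM. These day 6 levels lie near those of F10 and below those of F6 by value.

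The allelic ratio, Dom fragments over Dom plus Cast fragments of a gene, was used for silencing of the Dom X, with values near 0.5 for equal output and near 0 for a silent Dom copy. Its median over the genes of the deposited ratio table was 0.514, 0.508, 0.557 and 0.579 in F10 on days 0, 1, 3 and 6, and 0.523, 0.512, 0.503 and 0.500 in F6. The median thus stayed at or above 0.500 in all 8 libraries, and it moved by 0.0643 in F10 and by −0.0226 in F6. The median Dom share of autosomal genes was 0.523 and 0.52 in F10 (day 0, day 6) and 0.520 and 0.522 in F6. Against that share the X median lay below it on day 0 and above it on day 6 in F10. In F6 it lay above it on day 0 and below it on day 6. The mean change of 0.0209 became −0.0185 when the F10 day 6 library was left out. With 2 libraries a group an exact two-sided permutation test cannot give a p below 0.333, so none was used. Without dTAG-13 the medians of the same clones changed by −0.188 in F10 and −0.112 in F6. With dTAG-13 and intact SPEN they changed by −0.286 and −0.283 in replicates 1 and 2 of FKBP12-PCGF35.

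**Figure D4:**
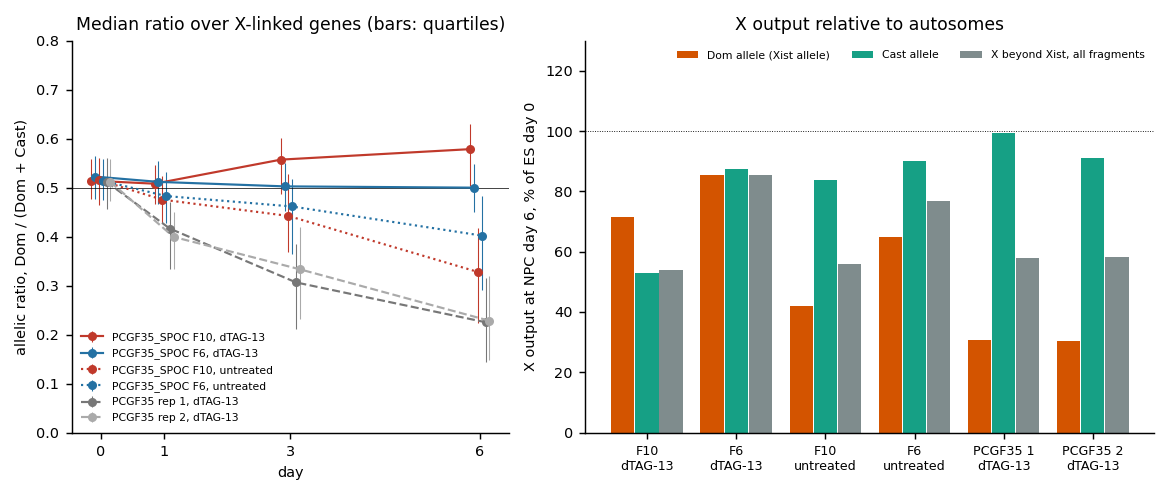
Left, median allelic ratio (Dom over Dom plus Cast fragments) over the X-linked genes of the ratio table with quartile bars by day for 6 cultures. Right, X-linked fragments, relative to autosomal ones, on day 6 as percent of day 0 from the Dom allele, the Cast allele and genes distal to Xist: treated F10 has Cast (52.8%) below Dom (71.7%), and treated F6 has both at a like level (87.3% and 85.4%).

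At single genes, 0 of 237 with at least 10 allelic fragments in each of the 4 libraries changed their ratio from day 0 to day 6 (edgeR on the Dom and Cast counts, smallest adjusted p of 0.059, 18 genes with unadjusted p below 0.05, 0 by limma). The per-gene ratio was higher on day 6 at 177 genes and lower at 59 in F10, and higher at 83 and lower at 153 in F6. Both clones went up at 62 genes and down at 38, and r across genes was 0.17. Ratios moved up by more than 0.1 at 70 genes and down by more than 0.1 at 19 in F10, and at 10 and 34 genes in F6. The direction was the same in all 4 equal bins of distance from Xist, with median changes of 0.0643, 0.0943, 0.0544 and 0.0381 in F10 from the nearest to the farthest bin and of −0.019, −0.0374, −0.0165 and −0.0090 in F6.

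The 2 genes closest to the threshold both had lower ratios in each clone. Eda (chrX:99975605-100400760, mm10, 3.30 Mb from Xist), which encodes the ectodysplasin ligand, had ratios of 0.468 and 0.368 in F10 (day 0, day 6) and of 0.494 and 0.344 in F6, with 951 to 6346 allelic fragments behind each. Sytl5 (chrX:9885620-9998864, mm10), a synaptotagmin-like gene, had ratios of 0.513 and 0.211 in F10 and of 0.446 and 0.304 in F6, on 46 to 115 allelic fragments. Day 0 and day 6 did not overlap at either, and both had an adjusted p of 0.059 (edgeR). They were chosen for their p after the values were seen.

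What the ratio cannot show is a change common to both X chromosomes. Summed over the genes of the ratio table and set against the autosomal fragments of the same allele, Dom X fragments in F10 on day 6 were 71.7% of their day 0 level and Cast X fragments 52.8%. In F6 the same shares were 85.4% for Dom and 87.3% for Cast. The F10 culture therefore held a smaller share of fragments from both X alleles on day 6, with the larger drop for Cast. In F6 both stayed nearer their ES level. In bulk RNA, less RNA per X and fewer cells with that X cannot be told apart. Genes distal to Xist, where a recombination leaves this line without allelic information, stood at 53.8% in F10 and 85.5% in F6. They stood at 56.0% and 77.0% in untreated F10 and F6 and at 57.8% and 58.4% in treated FKBP12-PCGF35. Per gene, the Cast allele had a median log2 change of −0.80 in F10, with 86.1% of 237 genes lower, and the Dom allele −0.42, with 73.4% lower. In F6 the medians were −0.16 for Cast and −0.20 for Dom, beside −0.12 and −0.04 for the Cast and Dom alleles of autosomal genes. By contrast, in untreated F10 the Dom X was at 41.9% and the Cast X at 83.7%, and in FKBP12-PCGF35 with dTAG-13 the Dom X was at 30.8% and 30.2% and the Cast X at 99.3% and 91.0% in replicates 1 and 2. Whether cells in the F10 culture had lost an X was not tested.

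Total RNA of X-linked genes was lower on day 6 than that of autosomal genes in both clones. The median log2 change of 604 X-linked genes minus that of 15113 autosomal genes was −0.71 in F10 and −0.26 in F6, and −0.49 in the fit over both. It was also negative in the other cultures, at −0.80 and −0.46 in untreated F10 and F6 and at −0.63 and −0.64 in replicates 1 and 2 of treated FKBP12-PCGF35. The medians of the single autosomes lay between −0.02 and 0.14 in the fit. Of the X-linked genes, 126 fell (20.9%) and 6 rose (0.993%), against 4.92% and 5.34% of autosomal genes. Without the F6 day 6 library 181 X-linked genes fell, and without each of the other 3 the count was 28 to 44. The difference of medians was −0.77 and −0.35 without the F6 and the F10 day 6 library.

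Pgk1, a glycolytic enzyme gene on the X, had the most uniform decrease of the listed X-linked genes. It was at 178, 158, 55.1 and 33.7 CPM over days 0, 1, 3 and 6 in F10 and at 332, 214, 65.2 and 60.1 CPM in F6 (−2.39 ± 0.16, adjusted p = 0.000225, edgeR), and the largest part of the fall lay between day 1 and day 3. Its level in the untreated clones and in FKBP12-PCGF35 also ended low, at 32.7 and 46.5 CPM and at 58.4 and 76.2 CPM on day 6. Rlim (RNF12), the ubiquitin ligase that activates Xist, was at 793 and 307 CPM in F10 and at 1058 and 453 CPM in F6 (−1.25 ± 0.13, adjusted p = 0.000896, edgeR). Klhl13, a ubiquitin ligase adaptor that restrains differentiation in cells with 2 active X chromosomes, was at 1235 and 373 CPM in F10 and at 1427 and 734 CPM in F6 (−1.27 ± 0.25, adjusted p = 0.0148, edgeR). Day 0 and day 6 did not overlap at Pgk1, Rlim or Klhl13. Hprt, a purine salvage enzyme gene, was at 122 and 59.7 CPM in F10 and at 171 and 116 CPM in F6 and also fell. The list of X-linked dosage regulators includes Hprt, although it is not such a regulator. Of its 7 genes tested, 3 fell (Rlim, Klhl13 and Hprt) and 0 rose, beside 20.9% that fell over all X-linked genes. Without the F10 day 0, the F6 day 0 or the F10 day 6 library the count was 1, Rlim.

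Of 10 X-linked genes listed as subject to silencing or as escaping it, Pgk1 and Ogt fell and 0 rose. This is near the share over all 604 X-linked genes tested, of which 20.9% fell and 0.993% rose. Ogt, which adds N-acetylglucosamine to proteins, was at 693 and 446 CPM in F10 and at 1196 and 806 CPM in F6 (−0.56 ± 0.11, adjusted p = 0.0149, edgeR), a call lost without the same 3 libraries (0.0836, 0.111 and 0.0871). All 10 were lower on day 6 in F10, and 5 of 10 in F6. Over all genes tested the shares were 49.1% and 55.4%. Over 208 X-linked genes distal to Xist they were 82.2% and 73.6%. Ddx3x, an RNA helicase gene that escapes X inactivation, was at 780 and 292 CPM in F10 and at 353 and 457 CPM in F6, and Atrx, a chromatin remodeller gene, was at 2083 and 667 CPM in F10 and at 1794 and 1166 CPM in F6. Kdm6a, a histone demethylase gene that also escapes, was at 581 and 378 CPM in F10 and at 476 and 513 CPM in F6. The clone-by-culture term was negative and past the threshold at 8 of the 10, beside 20.1% of all genes. It was so at 1 with the treated libraries alone. These counts describe the cultures of F10 and F6 only.

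Allelic silencing under dTAG-13 differed from that in the untreated clones, where the ratio changed at 134 of 231 genes (58%), and from that in treated FKBP12-PCGF35, where it changed at 218 of 233 (93.6%). The change of the ratio from day 0 to day 6 was higher with dTAG-13 at 101 of 230 genes (43.9%) and lower at 0, by edgeR on the allelic counts, and at 125 with an unadjusted p below 0.05, all higher. The count was 80 by limma, 80 without the clone block, 43 without the treated F10 day 6 library, 50 without the untreated F10 day 6 library and 66 without the treated F10 day 0 library. Msn (chrX:96096044-96168553, mm10, 7.35 Mb from Xist), which encodes moesin, a link between membrane and actin, had ratios of 0.571 and 0.671 in treated F10 and of 0.550 and 0.485 in treated F6. Without dTAG-13 its ratios were 0.549 and 0.138 in F10 and 0.577 and 0.226 in F6. Both untreated day 6 ratios lay below every treated one, and the changes differed by 0.399 (adjusted p = 6.69e-10, edgeR). Zc3h12b, a zinc finger gene, had ratios of 0.580 and 0.515 in treated F10 and of 0.476 and 0.502 in treated F6, against 0.623 and 0.0917 in untreated F10 and 0.496 and 0.185 in untreated F6. Eda, with its lower ratios under dTAG-13, was at 0.113 and 0.121 on day 6 in the untreated clones, and its changes differed by 0.245 (adjusted p = 3.62e-09, edgeR).

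More genes differed from the line with intact SPEN. With PCGF3/5 removed in both lines, the change of the ratio was higher in the SPOC mutant at 205 of 229 genes (89.5%) and lower at 0 (edgeR), and the count was 200 without the clone block and 183 to 199 without single libraries. Fhl1 (chrX:56731760-56793346, mm10, 46.72 Mb from Xist), a LIM domain gene of muscle, had ratios of 0.573 and 0.714 in treated F10 and of 0.579 and 0.578 in treated F6. In treated FKBP12-PCGF35 they were 0.591 and 0.150 in replicate 1 and 0.560 and 0.0946 in replicate 2, without overlap on day 6 (difference 0.523, adjusted p = 5.49e-16, edgeR). Pcyt1b, an enzyme gene of phosphatidylcholine synthesis, had ratios of 0.465 and 0.570 in F10 and of 0.471 and 0.458 in F6, against 0.539 and 0.0609 and 0.534 and 0.0529 in replicates 1 and 2 of FKBP12-PCGF35 (difference 0.525, adjusted p = 7.87e-14, edgeR). Itgb1bp2, an integrin-binding chaperone gene, had ratios of 0.519 and 0.650 in F10 and of 0.456 and 0.558 in F6. It kept ratios of 0.445 and 0.520 on day 6 in the untreated SPOC clones, against 0.121 and 0.0899 in FKBP12-PCGF35 with dTAG-13. A comparison with the FKBP12-PCGF35 line is one between lines as well as between SPEN alleles, which cannot be told apart.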

How the data were processed

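Chromatin-associated RNA was sequenced from paired libraries, 2 clones by 2 days, within a series of 58. Per the labels and the methods, the authors removed ribosomal reads with Bowtie2 2.3.2, aligned pairs to N-masked mm10 with STAR 2.4.2a, kept unique alignments, sorted them by allele (SNPsplit) and summed fragments over each gene's transcript span on its own strand (featureCounts 1.5.2). The deposited counts are raw, in 3 columns (all, Cast, Dom) over 22556 genes. The deposited allelic ratio is a fraction from 0 to 1 for X-linked genes that the authors filtered, and was recovered from the counts. N-masking and unique alignment lose fragments in repeats and near-identical copies, and featureCounts drops fragments shared by overlapping genes: 7 listed genes, such as Sox1 and Sox2, were at 0 in all 58 libraries, each overlapped by another gene model on the same strand.

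Total counts were tested with edgeR 4.0.16 (R 4.3.3): filterByExpr, TMM, 1 mean per group of the 16 FKBP12-PCGF35_SPOC libraries plus a clone term, glmQLFit and glmQLFTest, with Benjamini-Hochberg adjustment at 0.05. The clone pairs the libraries, since each replicate number is 1 cell line: deviations from group means correlated at 0.227 to 0.860 over 28 pairs of groups. For treated ES day 0 and treated NPC day 6, the groups compared here, the value was 0.229, near the lowest. Pairing was thus weak for this comparison. For treated and untreated NPC day 6 it was 0.770. The fit counts such cultures as separate units, so its p-values may be too small. Allelic counts were tested as Dom against Cast within each library, at genes with at least 10 allelic fragments in every library compared. The comparison with FKBP12-PCGF35 used 32 libraries. DESeq2 1.42.0 and limma 3.58.1 served as alternatives. Scripts were tested on simulated counts.

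Named genes were the 12 per direction with the largest fold change among called genes at 5 CPM or more that moved the same way in both clones (5 per direction for allelic changes, at 20 or more allelic fragments), plus members of the gene lists. Gene models known only by a number were passed over. Members and lists were chosen with earlier results of these data known. The other lines of the series were not used here. The clones differed by far more than counting error (chi-square per degree of freedom of at least 50.0), and fragments carried no molecular identifiers.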

Additional observations from a re-analysis of the deposited data

Results flagged for a closer look

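Among X-linked genes, 101 differed in the change of allelic ratio between dTAG-13 treated and untreated FKBP12-PCGF35_SPOC cultures, and 205 differed between treated FKBP12-PCGF35_SPOC and treated FKBP12-PCGF35, by the interaction term of edgeR's quasi-likelihood test. The differences of the ratio changes (treated minus untreated) were 0.443 at Awat2, 0.429 at Pim2, 0.407 at Gria3, 0.401 at Zc3h12b and 0.399 at Msn. Against FKBP12-PCGF35 they were 0.547 at Itgb1bp2, 0.525 at Pcyt1b, 0.523 at Fhl1, 0.509 at Elf4 and 0.501 at Dlg3. Awat2, Pim2 and Gria3 rest on 21 to 120 allelic fragments per library. Pim2 started from unequal ratios, at 0.303 and 0.316 in treated F10 and F6 and at 0.367 and 0.731 in the untreated clones on day 0.

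The change from ES to NPC culture differed between clones F10 and F6 at 6306 genes by the clone-by-culture term, which rests on libraries of 2 clones only. The median allelic ratio moved by 0.0643 in F10 and by −0.0226 in F6, in opposite directions, and this difference was not tested, since each clone has 1 library per day.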

How the results depend on the processing

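The replicate block is the clone term. Of 1683 genes called from day 0 to day 6, 68 were called with no replicate block, all among the 1683, and of 1558 called from day 1, 106. The 8 dTAG-13 treated libraries alone gave 77, 65 and, for the clone-by-culture term, 64 in place of 6306. The 4 libraries alone gave 7 (6 among the 1683), with 1 residual degree of freedom, and adding the clone-by-culture term gave 4965. Leaving out 1 library gave 197 to 2846 from day 0, 173 to 2521 from day 1, 0 to 2 for the interaction with dTAG-13, 0 to 71 for that with the line (DESeq2 45), 4882 to 5963 for the clone-by-culture term, 43 to 142 for the allelic interaction with dTAG-13, 183 to 199 for that with the line, −0.0185 to 0.0602 for the median ratio change and −0.77 to −0.35 for X minus autosomes. Over all X-linked genes proximal to Xist, 1 allelic ratio changed in place of 0. Without the block, 80 and 200 genes were called in place of 101 and 205. RLE size factors, autosomal TMM and no filter on low counts kept the day 0 count within 1.5 times, DESeq2 gave 2398, and no tested result changed direction, while the median ratio change, which has no test, changed sign without the F10 day 6 library. Of 631 values of the 49 listed or named genes called, 408 stayed past the threshold and 223 did not. The cause of these shifts was not tested. Depth also limits the ratios, with 147.5 to 272.5 allelic fragments per gene at the median in the 4 libraries.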

Other observations

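Wide separations between the clones also lay outside the lists. Filip1l, which encodes a filamin-interacting protein, was at 3836 and 27.7 CPM in treated F10 on days 0 and 6 and at 251 and 5455 CPM in treated F6, and D130009I18Rik, an unnamed gene model, was at 1307 and 0.608 CPM in F10 and at 101 and 1217 CPM in F6. Without dTAG-13, Filip1l was at 10252 and 72.7 CPM in F10 and at 635 and 8329 CPM in F6. Its level also differed between the ES days, at 10252 on day 0 and 447 CPM on day 1 in untreated F10, 635 and 11.7 CPM in untreated F6, and 251 and 10.3 CPM in treated F6, against 3836 and 6609 CPM in treated F10. In treated FKBP12-PCGF35 it was at 7.14 and 2422 CPM in replicate 1 and at 3.56 and 4093 CPM in replicate 2. Cmss1, a ribosome biogenesis gene, was at 548 and 673 CPM in treated F10 and at 295 and 9798 CPM in treated F6. Filip1l, D130009I18Rik and Cmss1 were looked at as members of the same locus, so they do not count as separate changes. They were chosen after their values were seen. At Filip1l, treated and untreated cultures of a clone lay the same way on day 6 against day 0.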
